A study of Mus musculus with 10 samples.

Results

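Endothelial identity and vascular endothelial growth factor (VEGF) signalling were described in mouse hearts through 10 genes, taken from the count table by their symbols. They were the ligand genes Vegfa and Vegfb, the VEGF receptor genes Kdr and Flt1, the angiopoietin receptor Tek with its partner Tie1, the junction genes Pecam1 and Cdh5, the nitric oxide synthase Nos3 and the co-receptor Eng. All 10 were among the 24537 genes of the count table, and all 10 passed the filter of at least 10 counts summed over the libraries. RNA was sequenced from heart tissue of 10 mice aged 6 weeks, 5 of them controls and 5 iSOD2 mice. Every mouse carried 1 copy of the Rosa26-rtTA2 transactivator and was exposed to doxycycline in utero through the chow of the dam. Only the iSOD2 mice (TRE-SOD2-shRNA+/-) also carried the doxycycline-driven hairpin against Sod2, the gene of the mitochondrial superoxide dismutase. Their control littermates (TRE-SOD2-shRNA-/-) lacked the hairpin. The transactivator was driven by the Rosa26 promoter, which is active in most tissues, so the knockdown was not limited to endothelium, and it had ended at birth. Both sexes were used, with 3 males and 2 females as controls and 2 males and 3 females as iSOD2 mice, and each genotype held 2 mice of litter A and 3 of litter B.

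Endothelial cells line the vessels and the chambers of the heart, and capillary endothelium lies close to nearly every cardiac muscle cell. In the adult heart, muscle cells are a main source of the ligands VEGFA and VEGFB, which act on receptor tyrosine kinases of the endothelium. KDR (VEGFR2) carries most of the growth and survival signal of VEGFA, whereas FLT1 (VEGFR1) binds VEGFA tightly with weak kinase activity and is also the receptor of VEGFB. TEK (TIE2) binds the angiopoietins and, with TIE1, keeps vessels quiescent. PECAM1 and VE-cadherin, the product of Cdh5, hold endothelial cells together, NOS3 makes the nitric oxide that relaxes vessels, and endoglin, the product of Eng, presents BMP9 and BMP10 to the receptor ALK1.

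The 2 VEGF receptor genes, Kdr and Flt1, are shown first through the sequence upstream of their starts. They were chosen because their estimated differences between genotypes were the largest among the 10 genes, in opposite directions. Neither difference passed (DESeq2 adjusted p 0.262 for Kdr and 0.438 for Flt1). On the log2 scale Flt1 (0.11) and Vegfa (−0.11) were close in size. Endothelial genes are known to be bound by ETS factors, whose core motif is GGAA. The lines give the 250 bases before the RefSeq start in GRCm38.p6, 5′ to 3′ on the strand of the gene, with GGAA or its reverse complement TTCC in capitals. The Kdr window is chr5:75978456-75978705 on the minus strand and ends 27 bases before the start in the count table, and the Flt1 window is chr5:147726012-147726261 on the minus strand and ends 23 bases before it.
Kdr: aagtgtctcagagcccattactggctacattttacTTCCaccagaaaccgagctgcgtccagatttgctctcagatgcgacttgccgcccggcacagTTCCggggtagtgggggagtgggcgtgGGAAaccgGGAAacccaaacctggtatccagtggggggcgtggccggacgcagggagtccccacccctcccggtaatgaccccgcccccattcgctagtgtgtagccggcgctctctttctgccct
Flt1: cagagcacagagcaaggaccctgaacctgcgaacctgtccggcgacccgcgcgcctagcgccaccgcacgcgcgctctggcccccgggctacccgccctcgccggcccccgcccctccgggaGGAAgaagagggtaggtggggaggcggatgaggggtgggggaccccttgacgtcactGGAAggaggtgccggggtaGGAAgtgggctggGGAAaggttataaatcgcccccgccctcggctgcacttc
Each window held the core motif 4 times, on either strand. The longer form AGGAAG or its reverse complement CTTCCT, which contains the core, was in the Flt1 window and not in the Kdr window. Of the 32851 promoters in the RefSeq table, 93.4% held the core motif in the same 250 bases, with a median of 3 matches, and 29.5% held the longer form. Windows were found for 7 of the 10 genes (Vegfa, Vegfb, Kdr, Flt1, Tek, Tie1 and Eng), and the matches ranged from 1 in Vegfb to 7 in Tie1, a count that 3.82% of promoters reached or passed. The longer form was in 3 of the 7 windows, those of Flt1, Tie1 and Eng. The matches describe letters only, since no binding was measured in these hearts.

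Library depth, as counts over genes in units of 1000000, lay between 16.4 and 24.3, with a median of 20.9. Sod2, the targeted gene, had 9562 to 11019 normalized counts in controls and 10116 to 11305 in iSOD2 mice (log2 fold change 0.03, SE 0.05, DESeq2 adjusted p 0.806), so its level gave no check of the genotype labels weeks after the knockdown had ended. Genes that mark other tissues varied between libraries. The 6 hepatocyte markers summed to 103 normalized counts in control 1 and to 19319 in iSOD2 10, and the 4 atrial markers to 517 in control 3 and 7655 in iSOD2 8. Some moved with genotype, although none of those named next was called. All 6 hepatocyte markers and all 4 atrial markers were higher in iSOD2 hearts, with summed levels of 103 to 9366 in controls and 4454 to 19319 in iSOD2 mice for the former, and of 517 to 2123 and 634 to 7655 for the latter. All 5 erythroid markers were lower in iSOD2 hearts (summed 36172 to 70779 in controls and 34296 to 50121 in iSOD2 mice), as were 4 of the 6 macrophage markers (6505 to 7812 and 5733 to 7533), 3 of which had an unadjusted p under 0.05 in DESeq2. Their part in the genotype results was not tested. None of the marker genes was at 0 in every library. Exon length also moved with genotype. The slope of the log2 deviation of a library from the mean of all libraries on log2 exon length was 0.0063 to 0.053 in the 5 controls and −0.051 to −0.018 in the 5 iSOD2 libraries. Of the 10 genes, 9 were longer than the median gene tested, so some results are also given with that trend removed.

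All 10 genes were well measured. Levels between genes were compared as normalized counts per kilobase of the exon length in the table, as mean ± SD over the 10 mice. Vegfb had the highest level, 1384 ± 83.0, although its counts were among the lowest, because its transcript was the shortest at 1.273 kb. Pecam1 (1270 ± 102), Cdh5 (1153 ± 138), Vegfa (1120 ± 135) and Kdr (932 ± 80.4) came next in level per kilobase. Tie1 had 748 ± 41.9, Eng 586 ± 20.6, Flt1 439 ± 42.3, Tek 431 ± 15.7 and Nos3 261 ± 18.7. The steps from Kdr to Tie1, Tie1 to Eng, Eng to Flt1 and Tek to Nos3 were seen in 10 of 10 mice. Vegfa exceeded Kdr and Pecam1 exceeded Cdh5 in 9 of 10. The order of the remaining neighbours was not as firm. Flt1 exceeded Tek in 5 of 10 mice, Cdh5 exceeded Vegfa in 6 and Vegfb exceeded Pecam1 in 7, so none of these pairs could be ranked beyond the spread between mice. The genes also differed in how much they varied. The coefficient of variation of normalized counts over the 10 mice was 3.51% for Eng, 3.65% for Tek and 5.60% for Tie1, against 12.1% for Vegfa and 12.0% for Cdh5.

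The first comparison asked whether endothelial and VEGF genes differed in adult hearts after the loss of SOD2 before birth. None of the 10 genes was called between genotypes, where a call needed a DESeq2 adjusted p of at most 0.05 and an absolute log2 fold change above 0.25. In the same fit 281 of 9479 genes with an adjusted p were called (2.96%). The count at an unadjusted p under 0.05 was also 0 of 10 in DESeq2, edgeR quasi-likelihood and limma voom. Over all genes, 2343 of the 17728 fitted were under 0.05 in DESeq2. Estimates were small on both sides of 0, with 5 genes higher and 5 lower in iSOD2 hearts, log2 fold changes from −0.13 to 0.11 and a median of −0.0036, beside −0.0018 over all genes fitted. In this fit the 95% intervals of the 10 genes reached from −0.30 to 0.26 on the log2 scale, no further than 1.23-fold lower or 1.20-fold higher. With the exon length trend removed, 0 of the 10 were called, 1 had an unadjusted p under 0.05 in DESeq2, and the median was 0.02. Intervals for that setting are not given. The normalized counts of the genotypes overlapped for all 10 genes, whereas 3.75% of the genes fitted had no overlap. Because bulk heart tissue was sequenced, fewer cells of a type and less RNA per cell cannot be told apart here or in any later result.

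**Figure D1:**
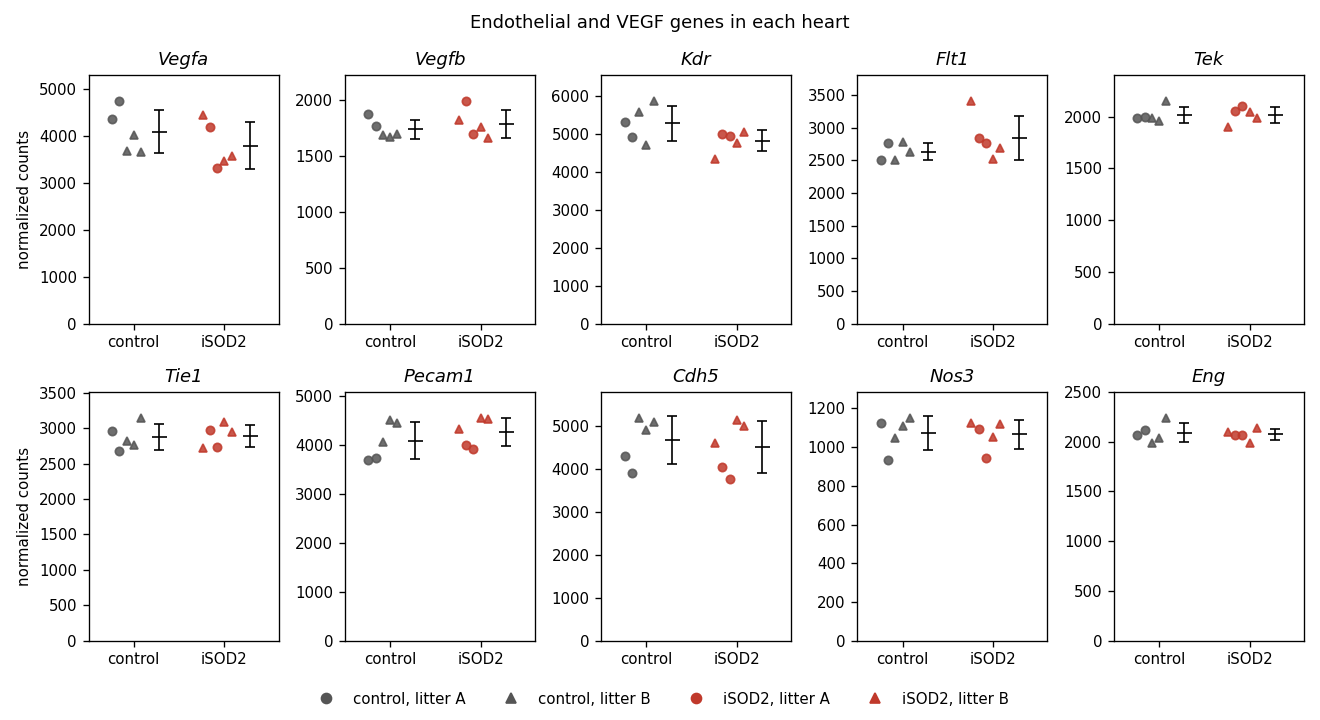
Normalized counts of each gene (vertical axis, starting at 0) in every heart, with controls in grey, iSOD2 mice in red, litter A as circles, litter B as triangles, and the mean ± SD (n = 5) beside each genotype. The genotypes overlap in all 10 panels, while the circles of Cdh5 and of Pecam1 lie below all of their triangles.

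Of the ligands, Vegfa (NM_001025250, mm10 chromosome 17, 46016993 to 46032377) had 4369.9, 4734, 3684, 4024 and 3649.6 normalized counts in controls 1, 2, 3, 4 and 6, and 4438, 4192, 3315, 3465 and 3571 in iSOD2 5, 7, 8, 9 and 10. The 2 controls of litter A were the highest controls, and no iSOD2 mouse reached control 2. The estimate for Vegfa was −0.11 on the log2 scale (SE 0.10, DESeq2 adjusted p 0.567). It was −0.28 within litter A (n = 2 per genotype, unadjusted p from DESeq2 0.0153, adjusted p 0.181) and 0.01 within litter B, and the genotype-by-litter interaction of 0.29 did not pass (SE 0.16, unadjusted p from DESeq2 0.0739). Vegfb, whose kinase receptor is FLT1, ranged from 1671 to 1877 in controls and from 1665 to 1987 in iSOD2 mice, which gave 0.04 on the log2 scale (SE 0.06, DESeq2 adjusted p 0.775).

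Of the receptors, Kdr (NM_010612, mm10 chromosome 5, 75933270 to 75978428) had 5327, 4920.4, 5569.7, 4713 and 5856 normalized counts in the controls and 4352, 4989, 4944, 4768 and 5050.4 in the iSOD2 mice, in the same order of mice. The lowest value was that of iSOD2 5 and the 3 highest were controls, but control 2 and control 4 lay within the range of the iSOD2 mice. The difference, −0.13 on the log2 scale, was the largest of the 10 genes and did not pass (SE 0.07, unadjusted p 0.0553, DESeq2 adjusted p 0.262). With the exon length trend removed it was −0.06 (DESeq2 adjusted p 0.837). Flt1 (NM_010228, mm10 chromosome 5, 147562196 to 147725988) had 2505, 2769, 2503, 2773 and 2621 normalized counts in the controls and 3401, 2848, 2772, 2520.1 and 2686 in the iSOD2 mice. The mouse with the least Kdr, iSOD2 5, had the most Flt1, and the other 4 iSOD2 mice covered nearly the same range as the controls. Flt1 differed by 0.11 on the log2 scale (SE 0.08, DESeq2 adjusted p 0.438), by 0.04 without iSOD2 5, and by 0.19 with the exon length trend removed (unadjusted p 0.0168, DESeq2 adjusted p 0.256).

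The other 6 genes were close to 0 between genotypes. Tek, the angiopoietin receptor, had 1956 to 2147 normalized counts in controls and 1900.0 to 2108 in iSOD2 mice, a log2 fold change of 0.0032 (SE 0.05). Its partner Tie1 had 2674 to 3140 and 2721 to 3088, a log2 fold change of 0.01 (SE 0.06). Pecam1 differed by 0.06 (SE 0.07, DESeq2 adjusted p 0.690) and Cdh5 by −0.05 (SE 0.10, DESeq2 adjusted p 0.821). Nos3 had 933 to 1149 normalized counts in controls and 942 to 1125 in iSOD2 mice, a log2 fold change of −0.01 (SE 0.07). Eng had 1991 to 2236 and 1990 to 2141, a log2 fold change of −0.01 (SE 0.05). Counting stated no strand option, and the spans of Nos3 and Eng overlap those of Atg9b and Fpgs on the opposite strand by 294 and 61 bases, so a small share of their reads cannot be assigned with certainty.

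**Figure D2:**
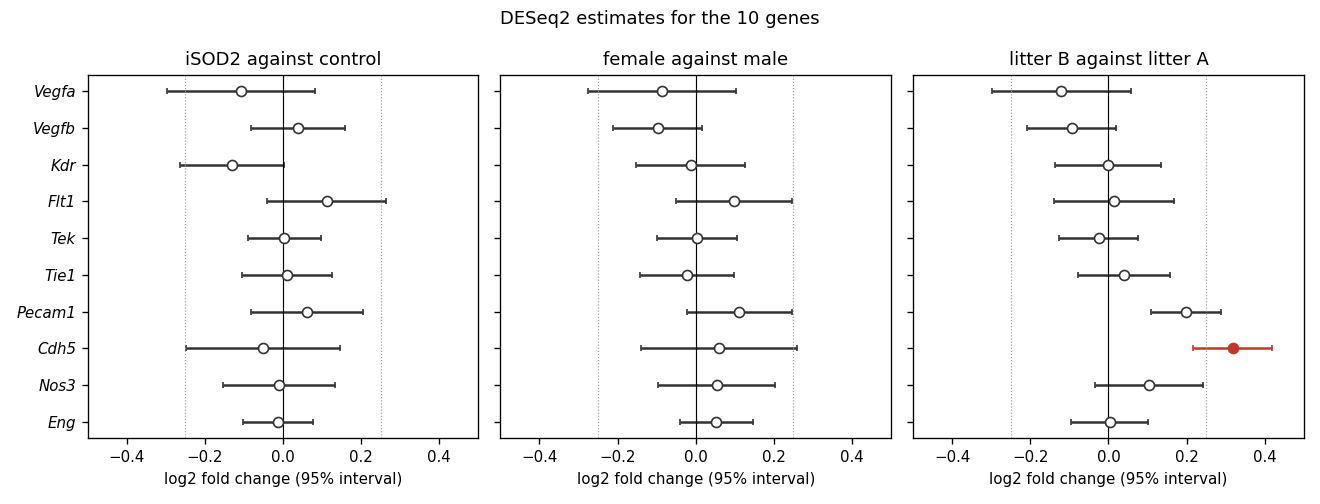
DESeq2 log2 fold changes of the 10 genes (points) with 95% intervals (bars) for genotype, sex and litter, with 0 as a solid line and the fold-change thresholds of ±0.25 as dotted lines. Only Cdh5 in the litter panel is called (filled red), at 0.32, and the interval of Kdr between genotypes just reaches 0.

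Ratios of 2 genes within a library do not depend on its scaling, and 6 of them were tested between genotypes by exact permutation, two-sided, with 252 arrangements and 0.00794 as the smallest p they allow. None passed after adjustment over the 6 ratios (lowest adjusted p 0.238). The ratio of Vegfa to Flt1, a ligand to the receptor that binds it without strong signalling, was 1.74, 1.71, 1.47, 1.45 and 1.39 in the controls and 1.305, 1.47, 1.20, 1.38 and 1.33 in the iSOD2 mice. Of the iSOD2 mice only iSOD2 7 lay above the lowest control, and the genotypes overlapped. On the log2 scale the ratio averaged 0.63 ± 0.15 in the 5 controls and 0.41 ± 0.11 in the 5 iSOD2 mice (mean ± SD), which differed by −0.22 (exact p 0.0397, adjusted p 0.238). The exact p was 0.02 when genotypes were permuted within sex and 0.0167 within litter, adjusted to 0.12 and 0.10. Within litter B alone (n = 3 per genotype) the difference was −0.11 (exact p 0.10, the smallest that 3 against 3 allows). The exact p over both litters rose above 0.05, to between 0.0556 and 0.0794, when control 1, control 2, iSOD2 5, iSOD2 8, iSOD2 9 or iSOD2 10 was left out. It lay between 0.0159 and 0.0476 when control 3, control 4, control 6 or iSOD2 7 was left out. With the exon length trend removed the difference was −0.27 (exact p 0.0159, not adjusted over the ratios).

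The ratio of Flt1 to Kdr ran from 0.448 to 0.588 in controls and from 0.529 to 0.781 in iSOD2 mice, a mean log2 difference of 0.23 (exact p 0.111, adjusted p 0.238). The highest value, that of iSOD2 5, stood apart from the 0.529 to 0.571 of the other iSOD2 mice, and without that mouse the difference was 0.13 (exact p 0.206). The ratio of Vegfa to Vegfb was lower in iSOD2 hearts by 0.15 on the log2 scale (exact p 0.119, adjusted p 0.238). Without iSOD2 5 this difference reached an exact p of 0.0317, and with the exon length trend removed it was −0.03 (exact p 0.754). Tie1 to Tek (0.01, exact p 0.841), Nos3 to Pecam1 (−0.07, exact p 0.365) and Eng to Pecam1 (−0.08, exact p 0.349) differed by less than the spread between mice.

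**Figure D3:**
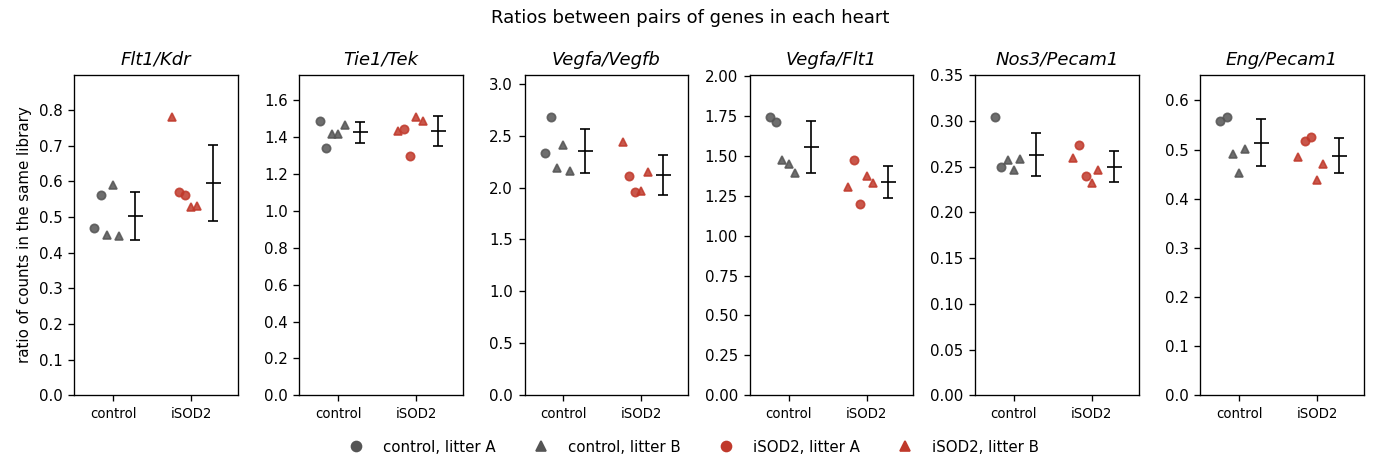
Ratios of counts of 2 genes in the same library (vertical axis, starting at 0) for each heart, with controls in grey, iSOD2 mice in red, litter A as circles, litter B as triangles, and the mean ± SD (n = 5) beside each genotype. The Vegfa to Flt1 ratio runs from 1.39 to 1.74 in controls and from 1.20 to 1.47 in iSOD2 mice, and 1 iSOD2 mouse stands at 0.781 in the Flt1 to Kdr panel.

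Sex was compared with genotype as a covariate, since both sexes were in each group. None of the 10 genes was called, against 79 of 16348 genes with an adjusted p (0.483%). In DESeq2 or edgeR 0 of 10 had an unadjusted p under 0.05, beside 1170 of the 17728 genes fitted in DESeq2. The estimates ran from −0.10 for Vegfb (SE 0.06, DESeq2 adjusted p 0.830) to 0.11 for Pecam1 (SE 0.07, DESeq2 adjusted p 0.853), female against male. With litter as a further covariate the estimate for Pecam1 was 0.04 (DESeq2 adjusted p 0.9998). The genotype-by-sex interaction also called 0 of 10 genes and 0 of 17725 overall (0%). It gave 0 of the 10 genes an unadjusted p under 0.05 in DESeq2 or edgeR, beside 210 of the 17728 genes fitted in DESeq2. Its largest estimate was −0.23 for Pecam1 (SE 0.13, unadjusted p from DESeq2 0.0683), which was 0.16 higher in iSOD2 males than in control males and −0.07 in females on the log2 scale. The wide intervals, from −0.60 to 0.50 over the 10 genes, left room for interactions of the size of the main estimates.

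The 2 junction genes differed between litters. Cdh5 (NM_009868, mm10 chromosome 8, 104101625 to 104144502) had 4283, 3890.2, 4034 and 3753 normalized counts in the litter A mice control 1, control 2, iSOD2 7 and iSOD2 8. In litter B it had 5168, 4889 and 5083 in controls 3, 4 and 6, and 4584, 5139 and 4981 in iSOD2 5, 9 and 10. The lowest mouse of litter B lay above the highest mouse of litter A, and this held within each genotype. The log2 fold change, litter B against litter A with genotype as a covariate, was 0.32 (SE 0.05, DESeq2 adjusted p 3.56e-07), and Cdh5 was the only 1 of the 10 genes called, where 548 of 15654 genes were called (3.50%) and 2.52% were called as higher in litter B. Cdh5 was called by edgeR too (adjusted p 0.00759), with sex as a covariate (0.35), in males alone (0.35, DESeq2 adjusted p 0.000905), in controls alone (0.31, DESeq2 adjusted p 0.00760), in iSOD2 mice alone (0.33, DESeq2 adjusted p 0.0396) and without each of the 10 mice in turn.

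Pecam1 (NM_008816, mm10 chromosome 11, 106654213 to 106715281) showed the same order at a smaller size. It had 3699, 3739, 3999 and 3929 normalized counts in litter A, in the order used for Cdh5. In litter B it had 4057, 4509.8 and 4456 in controls and 4327, 4551 and 4543 in iSOD2 mice. The litters did not overlap, although control 3 exceeded iSOD2 7 by little. The difference of 0.20 on the log2 scale (SE 0.05, DESeq2 adjusted p 0.00120) passed on the p-value but lay under the fold-change threshold, so Pecam1 was not called. Its adjusted p also passed in edgeR (0.0326) and with sex as a covariate (DESeq2, 0.0285). It did not pass among males alone (0.16, DESeq2 adjusted p 0.573), controls alone (0.23, DESeq2 adjusted p 0.121) or iSOD2 mice alone (0.18, DESeq2 adjusted p 0.697), each with fewer mice. Of the 10 genes, Cdh5 and Pecam1 did not overlap between litters, as was the case for 4.10% of the genes fitted.

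The other 8 genes did not follow the junction genes. Kdr (−0.0016, SE 0.07), Flt1 (0.01, SE 0.08), Tek (−0.03, SE 0.05), Tie1 (0.04, SE 0.06) and Eng (0.0030, SE 0.05) had estimates near 0 between litters. Nos3 was at 0.10 (SE 0.07), Vegfb at −0.09 (SE 0.06) and Vegfa at −0.12 (SE 0.09), all with DESeq2 adjusted p above the threshold. Vegfa was called as lower in litter B among the 5 males alone (−0.29, DESeq2 adjusted p 0.0127) and was at −0.26 among controls alone (DESeq2 adjusted p 0.0585) and 0.03 among iSOD2 mice alone. No gene of the 10 was called for a genotype-by-litter interaction in DESeq2, where 1 of 17721 genes was called (0.00564%). Of the 10 genes 0 had an unadjusted p under 0.05 for it, beside 317 of the 17728 genes fitted.

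**Figure D4:**
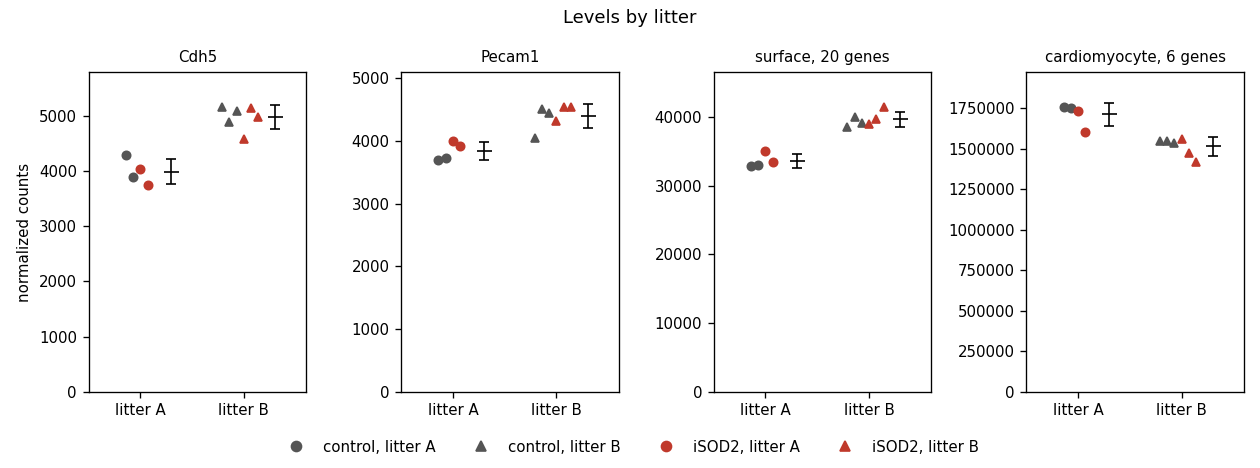
Normalized counts (vertical axes, starting at 0) of Cdh5, of Pecam1, and summed over 20 endothelial surface genes and over 6 cardiomyocyte markers in each heart, by litter, with controls in grey, iSOD2 mice in red, and the mean ± SD (n = 4 in litter A, 6 in litter B) beside each. All 6 litter B mice lie above the 4 litter A mice in the first 3 panels and below them in the cardiomyocyte panel.

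Litter A held 3 males and 1 female and litter B 2 males and 4 females. Markers of other cells moved with litter as well. The 6 cardiomyocyte markers summed to 1.61 to 1.76 in litter A and to 1.42 to 1.56 in litter B, in units of 1000000 normalized counts, with 1 of 6 markers higher in litter B and a median log2 fold change of −0.12. The 6 hepatocyte markers were all higher in litter B, with a median of 1.27, and summed to 103 to 11856 in litter A and 5297 to 19319 in litter B. All 6 macrophage markers (median 0.11) and all 5 erythroid markers (median 0.44) were higher in litter B too, with 0 called in either list. Of the 9 mural markers 3 were higher and 6 lower in litter B, with a median of −0.07. The 1 called was Acta2, a smooth muscle actin, at 0.96 (SE 0.16). Of the 4 atrial markers 3 were higher in litter B and 1 was lower, with a median log2 fold change of 1.01. The lower gene, Nppa, was the only 1 with an adjusted p, and it was called at −1.53 (SE 0.50). Their part in the differences of Cdh5 and Pecam1 was not tested. Any step shared by the mice of a litter, such as the dam or the handling, cannot be told apart from litter.

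The rest of the endothelial program was read through 172 genes in 12 lists, of which 171 passed the filter. Between genotypes 5 of the 142 genes with an adjusted p were called (3.52%), 3 higher and 2 lower, a share near the 2.96% over all genes. Rgcc, a gene of capillary endothelium, ranged from 161 to 269 normalized counts in controls and from 241 to 415 in iSOD2 hearts (log2 fold change 0.57, SE 0.17, DESeq2 adjusted p 0.0201). Id3, a target of BMP signalling, rose by 0.42 (SE 0.14, adjusted p 0.0466), and Pts, which makes the cofactor of nitric oxide synthases, rose by 0.26 (SE 0.09, adjusted p 0.0490). Of the HIF pathway, Egln3, an oxygen-sensing hydroxylase and HIF target, went from 935 to 1321 in controls to 750.1 to 1081 in iSOD2 mice (−0.40, SE 0.12, adjusted p 0.0186). Hif1an, which hydroxylates HIF-1 alpha, was at −0.25 (SE 0.07, adjusted p 0.0106). The genotypes overlapped for all 5 genes, and edgeR quasi-likelihood called 0 of the 172, with adjusted p from 0.105 to 0.169 for these 5. It also called 0 of all genes between genotypes, so that 0 is not particular to these lists. With the exon length trend removed only Egln3 was called (DESeq2 adjusted p 0.0386, against 0.144 to 0.485 for the others), and with length and GC trends removed none was (Egln3 0.0505, the others 0.130 to 0.523). With sex as a covariate Rgcc (DESeq2 adjusted p 0.0355) and Egln3 (0.00556) were called and the other 3 were not.

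Each of these 5 calls was lost when some mice were left out. Rgcc was lost without control 1, control 2, control 3 or iSOD2 5. Egln3 was lost without control 3, control 6, iSOD2 7 or iSOD2 8, and Hif1an without control 2, control 3, iSOD2 9 or iSOD2 10. Id3 was lost without control 1, 2, 3 or 6 or iSOD2 5, 7 or 10, and Pts without control 1, 2, 3 or 6 or iSOD2 5, 7, 9 or 10.

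The other 8 lists held no call between genotypes, and 8 of their 96 genes had an unadjusted p under 0.05 in DESeq2 and 9 in edgeR. Over all genes, 2343 of the 17728 fitted were under 0.05 in DESeq2. Of the 20 endothelial surface genes 15 were higher in iSOD2 hearts with a median log2 fold change of 0.05, and the largest estimate was that of Emcn, a sialomucin of capillaries and veins, at 0.25 (DESeq2 adjusted p 0.0181), just under the fold-change threshold. The 6 other VEGF family genes had a median of −0.03 with Nrp2, a co-receptor, at −0.16, and the 22 transducers downstream of KDR a median of −0.0026 with Prkca at −0.21. The 4 angiopoietin pathway genes had a median of −0.02, with the TEK ligand gene Angpt1 at 0.07. The medians were −0.01 for the 20 endothelial transcription factors, with Bcl6b at −0.24, 0.01 for the 12 Notch genes, with Hey1 at 0.25, and 0.05 for the 8 lipid uptake and apelin genes, with Fabp4 at 0.33. Of the 4 adhesion molecules of inflammation, Vcam1 was at 0.15 and the median was −0.10. Among markers of the cells around the endothelium, 3 of 9 mural genes were called, beside 2.96% of all genes. The list did not move as a whole, with 4 of the 9 higher and 5 lower in iSOD2 hearts and a median log2 fold change of −0.06. For the smooth muscle actin Acta2 the mean normalized count was 6189 in iSOD2 hearts, against 6501 for controls, and the genotypes overlapped. Tagln (0.40, SE 0.10, adjusted p 0.00361) and Myh11 (0.28, SE 0.09, adjusted p 0.0491), both of smooth muscle, rose, and Cspg4, a pericyte proteoglycan, fell by 0.28 (SE 0.06, adjusted p 0.000873) with 1468 to 1746 normalized counts in controls and 1227 to 1363 in iSOD2 mice. Tagln held without each mouse in turn, and Cspg4 was lost without control 6. Myh11 was lost without 8 of the 10 mice (all but control 6 and iSOD2 10). None of the 3 passed in edgeR (adjusted p 0.0673 to 0.158), which called 0 of all genes between genotypes. Their estimates with the exon length trend removed are not given here.

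**Figure D5:**
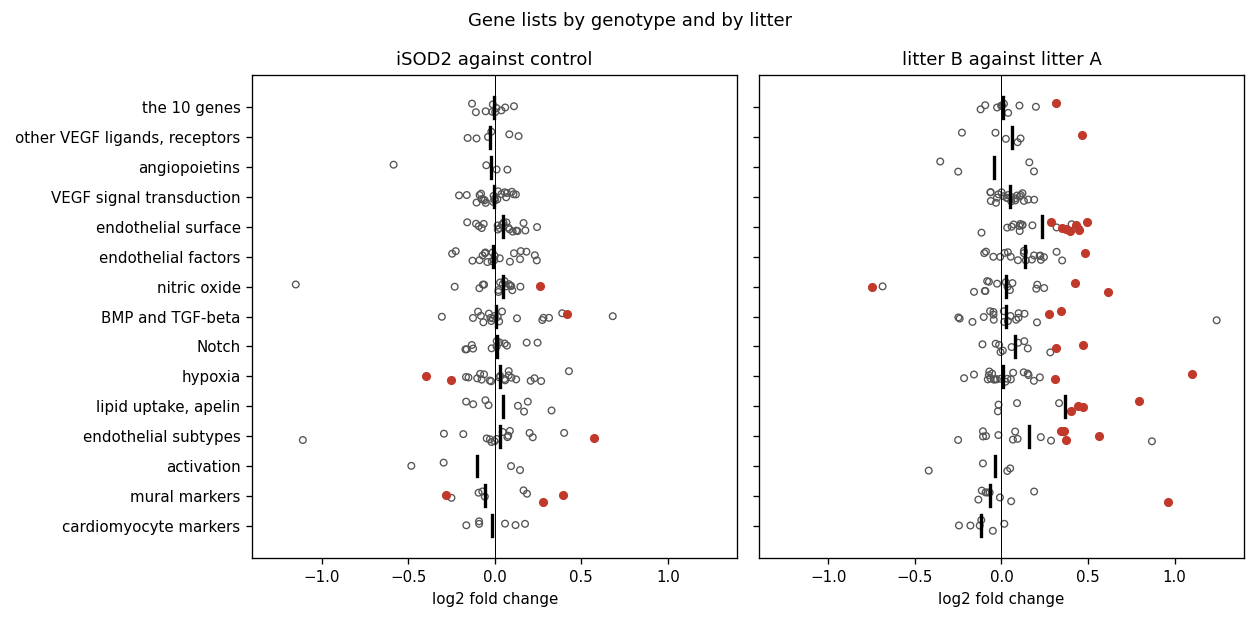
DESeq2 log2 fold changes (horizontal axis) of single genes (circles) in each list, for genotype on the left and litter on the right, with called genes filled red and the list median as a black bar. Between genotypes the medians of the gene lists lie between −0.10 and 0.05, and between litters those of the surface and the lipid uptake lists lie at 0.23 and 0.37.

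Between litters more genes of the wider lists were called. Of 169 genes with an adjusted p, 26 were called (15.4%), of which 25 were higher in litter B and 1 was lower, beside 3.50% of all genes. The surface list had the most calls, with 7 of 20 called, 19 of 20 higher and a median log2 fold change of 0.23, beside −0.0036 over all genes fitted. Cav1, the coat protein of caveolae, had 4113 to 4952 normalized counts in litter A and 5706 to 7034 in litter B (0.50, SE 0.05, DESeq2 adjusted p 1.8e-16). Cd34, a sialomucin, had 2569 to 3169 and 3676 to 4217 (0.45, SE 0.06, adjusted p 1.4e-09). Icam2 (0.43), the sphingosine 1-phosphate receptor S1pr1 (0.40) and the tight junction protein gene Esam (0.37) were called as well, and these 5 were called by edgeR and without each mouse in turn.

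The 8 lipid uptake and apelin genes had 4 calls, all higher in litter B, with a median of 0.37. Apln, the apelin ligand of tip cells, had 217 to 436 normalized counts in litter A and 463 to 670 in litter B (0.80, SE 0.15, adjusted p 1.7e-05). Gpihbp1, which anchors lipoprotein lipase on capillaries, was at 0.47 (SE 0.08), Fabp5, a fatty acid carrier, at 0.44 (SE 0.10) and Aplnr, the apelin receptor, at 0.40 (SE 0.11, lost without control 2). Of the VEGF family Nrp2 was called at 0.47 (SE 0.07), with 1527 to 1788 in litter A and 1881 to 2560.4 in litter B. The 22 transducers downstream of KDR and the 4 angiopoietin pathway genes held 0 calls in DESeq2, and edgeR called 0 of them. They had 1 and 2 genes at an unadjusted p under 0.05 in DESeq2, beside 2297 of the 17728 genes fitted. In the nitric oxide list the 1 gene called as lower in litter B was Nosip, an interactor of NOS3, with 658 to 846 normalized counts in litter A and 409 to 480 in litter B (−0.75, SE 0.08, adjusted p 4.3e-17), while Ddah1 (0.61, SE 0.16, lost without control 2) and Nostrin (0.43, SE 0.12, lost without control 1, control 2, iSOD2 7 or iSOD2 10) were higher.

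Calls in the other lists were fewer and less steady. The transcription factor gene Bcl6b was called at 0.48 (SE 0.13, lost without control 2), and of the Notch genes Nrarp at 0.47 (lost without control 1, control 2, control 3 or iSOD2 10) and Notch4 at 0.31 (lost without iSOD2 8). Of the BMP pathway, Id1 was at 0.34 and Smad1 at 0.28, each kept in 2 of the 10 fits that left out a mouse. Among subtype genes, Lyve1, listed here as a lymphatic gene, was at 0.57 (SE 0.13), called without each mouse in turn. Which cells expressed it was not tested. The gap junction gene Gja5 of arteries was at 0.38, and of capillary genes Car4 was at 0.36 and Aqp1 at 0.35, kept in 2, 8 and 3 of those 10 fits. Of the HIF pathway, Hif3a was at 1.10 (SE 0.32) and Egln3 at 0.31 (SE 0.08), kept in 5 and 7 of them. The 4 adhesion molecules held 0 calls in DESeq2 or edgeR and 0 genes at an unadjusted p under 0.05 in DESeq2. Between sexes, 1 of 169 genes of the wider lists was called (0.592%), Fabp4, a fatty acid carrier of capillaries, at 0.39 (SE 0.11, DESeq2 adjusted p 0.0430) in females against males.

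The 10 genes did not vary as 1 block across mice. Over the 45 pairs, Pearson r of log2(normalized count + 1) across 10 mice ran from −0.71 to 0.77 with a median of 0.11, 26 pairs were positive, and 0 pairs passed adjustment in permutation tests (lowest adjusted p 0.511). The highest value, of Pecam1 with Cdh5, came from mice that fell into separate litters, so it is given within litter B alone, where r was −0.07 (n = 6, exact permutation p 0.826, Spearman rho −0.03, exact p 1). Over the 45 pairs within litter B, r ran from −0.99 to 0.92, 5 pairs had an exact p under 0.05, and 0 passed adjustment (lowest adjusted p 0.0625). With 6 mice the smallest possible exact p is 0.00139, which adjustment over 45 pairs takes to 0.0625 for a single pair. No single pair could therefore pass, and the 0 says little about these pairs. The lowest exact p was that of Flt1 with Cdh5 (r −0.99, exact p 0.00139, rho −1, exact p 0.00278), a pair with r −0.29 over both litters. Tek with Tie1 had r 0.92 in litter B (exact p 0.00278, adjusted p 0.0625, rho 0.94, exact p 0.0167) and Nos3 with Eng 0.91 (exact p 0.0111, adjusted p 0.167, rho 0.89, exact p 0.0333). The other 2 were Vegfa with Flt1 (r 0.92, adjusted p 0.20) and Vegfa with Cdh5 (r −0.92, adjusted p 0.20), each with an absolute rho of 0.60 (exact p 0.242). The lowest r over both litters was that of Kdr with Flt1, at −0.71 (permutation p 0.0227, adjusted p 0.511), with Spearman rho −0.66 (permutation p 0.0443). Without control 6 and iSOD2 5, the 2 mice farthest from the median of Kdr, r was −0.56, and within litter B alone it was −0.69 (exact p 0.108).

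For each of the 10 genes, the genes most like it across the 10 libraries were ranked by Pearson r among 12150 others whose mean normalized count was 50 or more, as a description of libraries that share litters and processing. Cdh5 was most like C1qtnf1 (r 0.98), the matrix gene Sparc (0.95) and the angiogenesis inhibitor Vash1 (0.95), and Pecam1 was most like Pola2 (0.96), the smooth muscle gene Myl9 (0.96) and Esam (0.96). Kdr was most like Relb (0.97), Rnf219 (0.93) and Klhl30 (0.93), whereas Flt1 was most like Runx1t1 (0.96), Dab2ip (0.94) and Rilpl1 (0.91). For Vegfa the 3 genes were Zmynd11 (0.96), 1010001N08Rik (0.94) and Tial1 (0.93), and for Vegfb they were Crat (0.92), Plcd1 (0.92) and Dhps (0.91). Tek was most like Map3k10 (0.94), Gm1653 (0.93) and Tnfrsf19 (0.93), and Tie1, with the lowest values, like Cox4i2 (0.89), Adamtsl1 (0.86) and Mmp2 (0.83). Nos3 was most like Rasip1 (0.94), an endothelial regulator of vessel lumens, Rpl29 (0.93) and Shf (0.92), and Eng like Pear1 (0.92), Tmem63a (0.90) and Gsdmd (0.86). No gene of the 10 was among the 3 of another.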

How the data were processed

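Heart tissue of 10 mice was measured by stranded total RNA sequencing after ribosomal RNA depletion. The authors trimmed reads with Trim Galore, aligned them to mm10 with STAR and counted exons with HOMER, with no strand option stated. What the authors deposited are estimated counts per gene, not normalized, which were rounded to whole numbers here. The other deposited measurement is the exon length in base pairs of the 1 transcript the authors kept per gene. Genes with under 10 counts in all were left out, which kept 17728 of 24537. The main model was DESeq2 1.42.0 (R 4.3.3), the tool the study's methods name, with their thresholds. The Wald test of genotype and the absence of covariates were chosen here. The same model tested sex and litter with genotype as a covariate. Normalized counts are counts divided by DESeq2 size factors. Adjusted p-values are Benjamini-Hochberg values over all genes, fold changes are unshrunken, and intervals are 1.96 SE on each side. Alternatives used edgeR 4.0.16, limma 3.58.1, other scalings and filters, covariates, subsets, removal of exon length and GC trends, and leaving out each mouse. Each library is 1 mouse, and no 2 libraries were copies (lowest chi-square per degree of freedom over 45 pairs 5.51). Exon GC content came from GENCODE transcripts of the same build. Scripts were tested on simulated data.

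The 10 genes, the other lists and the tests were chosen with earlier results of these data known, so their counts are no independent support. Within lists, up to 5 called genes were named by absolute log2 fold change, or, with no call, the gene with the largest one among those with a mean of at least 50. Sequences came from a RefSeq table of GRCm38.p6.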

Additional observations from a re-analysis of the deposited data

Results flagged for a closer look

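Within genotypes (5 mice each) and litters (4 and 6 mice), 64 groups of values of the 10 genes and 6 ratios were searched for a single mouse far from the rest. The search found 7, where chance gives about 1 in 20 groups. Groups by genotype and by litter hold the same mice, and the ratios reuse counts of the 10 genes. The groups are thus not independent, and no excess can be read from the 7. Most had small gaps. Kdr in litter A had 5327 normalized counts in control 1, against 4920.4 to 4989 in the other 3 mice, and Eng in litter A had 2119.98 in control 2, against 2063 to 2070.0. Tek had 2147 in control 6, against 1956 to 1993 in the other controls. Flt1 had 3401 normalized counts in iSOD2 5, against 2503 to 2773 in the other litter B mice. The Flt1 to Kdr ratio was 0.781 in iSOD2 5, against 0.529 to 0.571 in the other iSOD2 mice, and 0.470 in control 1, against 0.561 to 0.571 in the rest of litter A. The Nos3 to Pecam1 ratio was 0.305 in control 1, against 0.246 to 0.258 in the other controls. Control 1 was also the library with the fewest hepatocyte marker counts, and the part of that in these values was not tested.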

How the results depend on the processing

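No paired analysis was possible because the genotypes share no replicate numbers to pair on. Litter, which both genotypes share, was used as a covariate and to permute within instead. The count of 0 of the 10 genes called between genotypes held under all 26 alternatives, including each mouse left out, and the 0 called between sexes held as well. Because edgeR and limma voom called 0 of all genes between genotypes, the 0 in those settings says nothing particular to the 10. Subsets by sex or litter had few mice and little room for a call. The 1 called between litters, Cdh5, was joined by Vegfa in males alone (2 called). Fold changes that were not called changed sign under some alternatives, and the cause was not tested. Between genotypes these were, in litter B alone, Vegfa (0.013) and Tek (−0.040), in females alone, Tek (−0.040), Tie1 (−0.077) and Pecam1 (−0.073), in males alone, Cdh5 (0.044) and Nos3 (0.051), with sex and litter as covariates, Tek (−1.9e-05), and with the exon length trend, or the length and GC trends, removed, Vegfb (−0.055 and −0.044), Nos3 (0.032 and 0.044) and Eng (0.014 and 0.026). With 1 mouse left out the ranges that crossed 0 were −0.0021 to 0.067 for Vegfb, −0.013 to 0.027 for Tek, −0.014 to 0.045 for Tie1, −0.11 to 0.0066 for Cdh5, −0.056 to 0.031 for Nos3 and −0.030 to 0.012 for Eng. Between litters, Kdr turned to 0.0027 in edgeR, 0.0043 with sex as a covariate, 0.0025 under TMM scaling, 0.044 in males and 0.073 in controls, Flt1 to −0.036 with sex and −0.12 in males, Eng to −0.024 and −0.062, Tek to 0.031 in controls, Nos3 to −0.0081 in males and Vegfa to 0.029 in iSOD2 mice. Their ranges with 1 mouse left out were −0.039 to 0.032 for Kdr, −0.050 to 0.052 for Flt1 and −0.020 to 0.019 for Eng. The Tie1 to Tek difference was −0.012 with the length trend removed and −0.013 to 0.044 with 1 mouse left out.

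Counts over many genes depended on the test and the mice. Of the wider lists, the 5 genes called between genotypes became 0 in edgeR, limma voom, females alone and with length and GC trends removed, 1 with the length trend removed or in litter B alone, 2 with sex as a covariate or in litter A alone, 3 in males alone, and 0 (without control 3) to 12 (without control 4) with 1 mouse left out. Over all genes, 281 became 0 in edgeR and limma voom, 151 in males, 96 in females, 121 in litter A, 65 in litter B, 133 and 118 with the length or both trends removed, 577 without the fold-change threshold and 166 (without control 2) to 488 (without control 4) with 1 mouse left out. Between litters, the 26 genes of the wider lists became 16 in edgeR, 8 in males, 12 in controls, 7 in iSOD2 mice and 16 (without control 2) to 28 with 1 mouse left out, and the 548 genes overall became 365, 261, 319, 89 and 300 (without control 1) to 705. Chosen after the data were seen were the alternatives for litter beyond edgeR, the sex covariate and single mice, those for sex with the length trend removed or TMM scaling, edgeR for the genotype-by-sex interaction, every setting of the wider lists between litters, those of the wider lists between genotypes beyond edgeR, the length trend, sex and litter together and single mice, the genotype-by-litter interaction and all counts over all genes. With 5 mice a group, the intervals of single genes were wider than most of the estimates.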
